A study of Canis lupus familiaris with 51 samples.

Results

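The 200 genes described here are those whose transcript level varied least across 51 dog tumours. All carry the label hemangiosarcoma, a cancer that forms blood-filled vessel channels. They were chosen in 2 steps from 16382 genes. A floor kept the 5687 genes that stood at 5 FPKM or more in every tumour. FPKM, the authors' normalised unit, is fragments per kilobase of transcript, by its name scaled to the mapped fragments of the library. How the deposited values were scaled between libraries is not given. Of the 5687 genes, the 200 with the lowest standard deviation (SD) of log2(FPKM + 1) over the 51 tumours were taken. They make up 3.52% of the genes that passed the floor and 1.22% of all genes. The values that chose them are those given first below, so their level and total spread are a description and carry no test.

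The tissue label gave spleen for 32 tumours, heart for 11 and liver for 3. Another 5 labels had 1 tumour each: cutaneous, metastatic tumor, a metastatic abdominal mass, an abdominal mass, and a tumour of undetermined histogenic origin. All samples are labelled tumor, no treatment is given, and no normal tissue was analysed here. Ages were 3.0 to 13.6 years in spleen, 5.9 to 11.2 years in heart and 9.6 to 10.9 years in liver. The single-label tumours, in the order given, came from 3 spayed females of 10.7, 11.3 and 9.0 years, an intact male of 8.7 years and an intact female of 0.7 years. The spleen tumours came from 5 intact and 11 spayed females and from 7 intact and 9 neutered males, the heart tumours from 2 intact and 1 spayed female and from 3 intact and 5 neutered males, and the liver tumours from 1 intact and 2 spayed females. The labels gave 9 breeds in spleen, 6 in heart and 3 in liver, and Golden Retrievers gave 20, 6 and 1 of these tumours. The remaining breeds were pooled as other breeds and are not listed here, nor are the breeds of the single-label tumours. Replicate numbers only name the tumours. The labels do not say whether any dog gave more than 1 tumour, so a p-value here reads sample-to-sample spread only.

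Genes with steady transcript levels across tissues are often called housekeeping or reference genes, and they commonly serve basic functions such as protein turnover, RNA processing and membrane traffic. In PCR work such genes are the yardstick against which other transcripts are read, and a gene that holds its level in one tissue need not hold it in another. The genes carry Ensembl identifiers only: 0 of the 16382 could be paired with a symbol in the table used here, so no function is given to any gene below, the defining markers of the labelled tissues could not be checked, and members other than 4 named ones are called by their rank of SD, rank 1 being the most stable. In bulk samples, fewer cells of a type and less RNA per cell cannot be told apart.

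The libraries differed more in their summed FPKM than in their upper quartile. The sum of FPKM over all genes ran from 405227 to 1057710 with a median of 508216, while the upper quartile of FPKM stayed between 22.4 and 26.1. Relative depth, solved from the steps that single fragments leave in the FPKM of low genes, ran from 0.527 to 2.14 times the median library. Only relative depth can be had from these values, and without fragment counts no counting interval is given. Spleens 5, 17 and 27, the metastatic tumor and the tumour of undetermined origin stood apart in their sums or in many genes, and 146 of the 200 members were chosen again without them. This set was picked after the values were seen and is not complete. Spleen 14 was left in, though its sum of 758452 was above the 743192 of spleen 17.

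The most stable members spanned a wide range of levels. ENSCAFG00000012127, rank 1, stood between 5.50 FPKM in liver 2 and 9.77 FPKM in spleen 23, with a mean of 7.68 ± 0.902 FPKM (SD, n = 51) and an SD of 0.15 on the log2 scale. Its lowest, median and highest values were 6.13, 7.60 and 9.77 FPKM in spleen and 6.45, 7.55 and 8.68 FPKM in heart, and the heart values lay within the spleen range. This gene sits just above the floor of 5 FPKM, where the added 1 in log2(FPKM + 1) narrows the spread most. ENSCAFG00000014638, rank 2, stood between 35.1 FPKM in liver 2 and 65.0 FPKM in spleen 17, with a mean of 47.0 ± 5.85 FPKM (SD, n = 51). Rank 3 had 29.8 to 49.3 FPKM, a highest value 1.65 times its lowest, which was the narrowest such range among the 200. Rank 4 was far more abundant, at 202 ± 24.7 FPKM (SD, n = 51).

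The SD of the 200 members had a median of 0.23 (log2 scale) and lay between 0.15 and 0.25, against a median of 0.43 in the other 5487 genes above the floor. Just inside the limit, ranks 198, 199 and 200 had SDs of 0.2484, 0.2485 and 0.2487, and just outside, ranks 201, 202 and 203 had 0.2488, 0.2491 and 0.2491, so there was no gap at the limit. The ratio of the highest to the lowest tumour had a median of 2.21 in members, from 1.65 to 3.22, and a median of 4.68 in the other genes above the floor. It was under 2 for 39 of the 200 members and for 1 of the 5487 others. It was under 3 for 196 members (98.0%) and 844 others (15.4%).

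The median abundance of the members lay below that of the other genes above the floor. Their mean levels ran from 7.52 to 284 FPKM with a median of 26.9 FPKM, against a median of 33.7 FPKM in the other genes above the floor. The share of genes that became members was highest among low genes: 13 of 73 genes with a mean of 5 to 10 FPKM (17.8%), 61 of 1338 at 10 to 20 FPKM (4.56%), 68 of 1880 at 20 to 40 FPKM (3.62%), 35 of 1286 at 40 to 80 FPKM (2.72%), 19 of 632 at 80 to 160 FPKM (3.01%) and 4 of 478 at 160 FPKM or more (0.84%). Median SD over all genes above the floor rose along the same steps, from 0.30 to 0.58 on the log2 scale. The floor builds in part of both trends, since a gene with a mean near 5 FPKM passes it in every tumour only if it varies little. The 3 most abundant members, of ranks 105, 136 and 4, averaged 284, 215 and 202 FPKM. Together the 200 members held a median of 1.56% of the summed FPKM of a tumour, from 0.795% in spleen 27 to 2.06% in the tumour of undetermined origin, the tumours with the highest and the lowest sum.

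**Figure D1:**
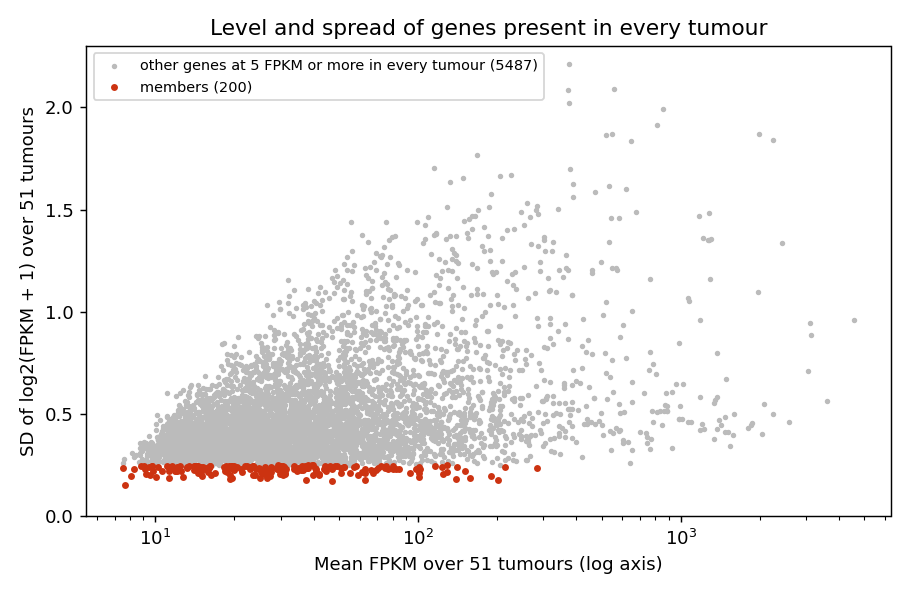
Mean FPKM over 51 tumours (log axis) against the SD of log2(FPKM + 1) for the 5687 genes at 5 FPKM or more in every tumour, 1 point per gene. The 200 members (red) form the lower edge of the cloud, between 0.15 and 0.25, and reach mean levels up to 284 FPKM, while the spread of the other genes (grey) widens with level. The floor keeps genes of low level only where they vary little.

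Most genes with low spread in one set of tumours also had low spread in tumours that played no part in ranking them, though the floor used all 51. When the 200 genes of lowest SD were picked in the 32 spleen tumours alone, from the same 5687 genes, their median SD was 0.22 in spleen and 0.27 in the 19 tumours of other labels, where the rest of the genes had a median of 0.43. Of those 200 genes, 192 (96%) lay below the median SD of the 5687 genes in the other tumours, and their median position was at 9.57% of the ranking. Picked in the 19 other tumours and read in spleen, 192 of 200 again lay below the median, at a median position of 11.0%. The exact membership carried over less. The list from spleen and the list from the 19 other tumours shared 53 genes, 26.5% of each. A list of 200 is 3.52% of the 5687 genes, so the lists shared more than that background share. The lists held 125 and 92 of the 200 members. These overlaps with the members are partly built in, as all 51 tumours chose the members.

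Within single tissue labels the members' median SD was 0.23 in spleen (n = 32), 0.20 in heart (n = 11), 0.21 in liver (n = 3) and 0.24 over the 5 single-label tumours, against 0.42, 0.35, 0.42 and 0.49 in the other genes above the floor. These tumours are among those that chose the members, so the values are a description. All 200 lay below the median SD of the genes above the floor within spleen, which the limit on the total SD fixes, as spleen holds 32 of the 51 tumours. Within heart 200 did, and in liver 182. With 3 tumours the liver SDs were spread from 0.016 to 0.78. Rank 4 was steady within spleen, less so within heart (SD 0.20, n = 11), and spread widely over the 3 liver tumours. It had the lowest SD of all genes above the floor within spleen, 0.14, with 167 to 247 FPKM there, yet its lowest and its highest values among the 51 tumours, 139.7 and 257.6 FPKM, were both from liver tumours, where the SD was 0.44. Rank 105 had 437.7, 422.0 and 229.9 FPKM in livers 1, 2 and 3, so 2 livers held its highest values and the third lay near the lowest spleen value of 228.9 FPKM.

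On the deposited scale, averaging several members narrowed the spread further. The mean log2 level of all 200 ran from 4.82 in heart 3 to 4.97 in the metastatic abdominal mass, with an SD of 0.038 and a range of 1.11-fold. Organ averages were 4.90 ± 0.035 (SD, spleen), 4.89 ± 0.042 (SD, heart) and 4.88 ± 0.042 (SD, liver). The mean log2 level of all other genes above the floor ran from 5.05 to 5.43, with an SD of 0.062. Their single-gene SD had a median of 0.43, so averaging narrowed the spread there as well. A nearly flat mean was therefore not particular to members. The mean of the 5 most stable members had an SD of 0.074 and that of the 10 most stable 0.066, but these were chosen on the same tumours. For the 10 genes of lowest SD in spleen, the mean had an SD of 0.045 in spleen and 0.11 in the 19 other tumours, where it ranged 1.34-fold with its lowest value in liver 2 and its highest in heart 11. The spread of that mean was therefore larger where the genes had not been chosen. For the full list of 200 from spleen the corresponding SDs were 0.035 and 0.059.

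The members did not rise and fall as one group. Their mean pairwise correlation over the 51 tumours was 0.024, against 0.0083 among the other genes above the floor, so a low mean was not particular to members. Of 19900 pairs, 30 (0.151%) had an absolute correlation over 0.6, against 1.24% of pairs among those other genes. These values are a description over tumours that share each library's scaling. The first principal component, the single axis that holds most variance, took 9.68% of the variance of the members and 20.3% of that of the other genes above the floor. The limit on the members' total SD over these tumours favours fewer strong pairs and a smaller first component. The strongest pair, the members of ranks 144 and 196, moved together: they had their lowest values in spleen 5, at 79.0 and 81.8 FPKM, and their highest in the metastatic tumor, at 215 and 189.6 FPKM.

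Some tumours departed from the common level in many members at once. A departure is taken here as more than 0.5 on the log2 scale, or 1.41-fold, from a gene's own median. It was seen in 345 of 10200 values of the members (3.38%), against 25.2% of values in the other genes above the floor. A set of 26 members had no such value in any tumour, 70 had 1, 46 had 2 and 58 had 3 to 5. Only 4 values lay more than 1 away: the member of rank 170 at 35.6 FPKM in liver 3 (median 15.5), that of rank 181 at 38.2 FPKM in spleen 9 (median 18.2), that of rank 99 at 160.3 FPKM in spleen 5 (median 79.1), and that of rank 88 at 48.5 FPKM in liver 2 (median 101).

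The departures were concentrated. There were 32 members beyond 0.5 in spleen 17, 31 in the tumour of undetermined origin, 26 in spleen 5, 21 in liver 2 and 20 in spleen 15, and these 5 tumours held 37.7% of all such values. Heart 8, heart 9 and spleens 2, 4, 11, 23, 28, 30 and 32 had 0. The tumour of undetermined origin held the highest value of 23 members and the lowest of 13, spleen 5 of 19 and 15, and spleen 17 of 17 and 15, so the departures ran both ways. In liver 2 they ran mostly downward, with 15 of 21 below the median and the lowest value of 18 members. The tumour of undetermined origin also had the largest root mean square deviation over the other 5487 genes above the floor, 1.03 on the log2 scale against 0.35 in the members. Of those other genes, 51.5% lay beyond 0.5 in spleen 17 and 54.7% in the tumour of undetermined origin. In spleen 5, liver 2 and spleen 15 the shares were 42.8%, 41.2% and 31.4%, so departures there were not particular to the members. Relative depth was 0.959 in spleen 17, 0.759 in the tumour of undetermined origin, 1.27 in spleen 5, 1.03 in liver 2 and 0.956 in spleen 15, inside the range of the other libraries. Its part in the departures was not tested. The sums of FPKM of spleen 17 and liver 2 were high, at 743192 and 696024, and those of spleen 5 and the tumour of undetermined origin low, at 428041 and 405227.

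**Figure D2:**
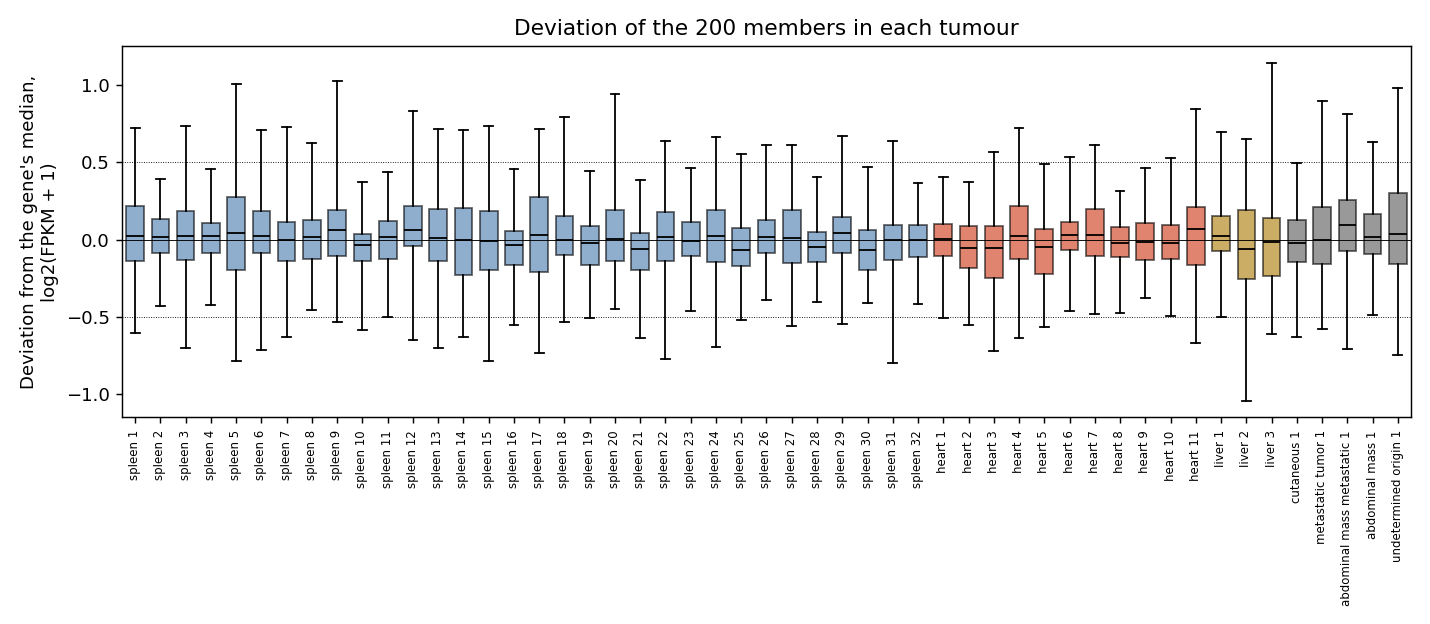
Deviation of each of the 200 members from its own median, in log2(FPKM + 1), for each of the 51 tumours (boxes: quartiles; whiskers: lowest and highest member; dotted lines: 0.5 either way; blue spleen, red heart, brown liver, grey single labels). Box medians stay near 0 in every tumour, and spleen 17, spleen 5, spleen 15, liver 2 and the tumour of undetermined origin show wide boxes or long whiskers.

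Whether the members differed by tissue label was tested in 1 limma model fitted to all 12887 genes with 1 FPKM or more in at least 3 of the 46 spleen, heart and liver tumours. All 200 members were tested, and 0 differed between the 3 organs at an adjusted p under 0.05 (limma F test, Benjamini-Hochberg over all genes), where 0.031% of all genes did. The unadjusted p was under 0.05 for 14 members (7.0%) against 9.23% of all genes, and the smallest adjusted p of a member was 0.416. The rule bounds the size of any difference, since a large one would raise the total SD. It does not fix the ratio of a difference to the gene's own spread within organs. The limma test, however, does not read that ratio alone, as it draws each gene's SD toward that of genes of similar level. For 200 of 200 members the SD it used was larger than the gene's own, with medians of 0.24 and 0.22. The rule therefore made calls among members less likely in advance, and their low count is no independent sign of equal levels.

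Heart and spleen tumours had close levels of every member. Of the 200, 86 were nominally higher and 114 nominally lower in heart, and 0 passed (0.155% of all genes did). With libraries scaled to the same summed FPKM, 120 were nominally higher. The median difference was -0.02 on the log2 scale, against 0.00 over all genes tested, and the absolute difference had a median of 0.059 in members and 0.15 over all genes. Single differences spanned -0.21 to 0.20, and the 95% confidence intervals of all 200 lay between -0.38 and 0.38. A change of 0.5 in either direction lay outside every interval. The limit on the total SD over these tumours favours small differences and narrow intervals, so these sizes are a description. The unadjusted p was under 0.05 for 7 members (3.5%), 5 higher and 2 lower in heart, against 10.5% of all genes, 5.87% higher and 4.66% lower.

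The members named here were taken by the smallest p in each direction, not by size. ENSCAFG00000018537, rank 14, had the smallest p among members higher in heart. Its lowest, median and highest values were 12.5, 14.1 and 15.8 FPKM in heart and 9.45, 11.9 and 17.7 FPKM in spleen, so all heart values lay within the spleen range, though above the spleen median. Its means were 14.04 ± 0.898 FPKM in heart (SD, n = 11) and 12.3 ± 1.74 FPKM in spleen (SD, n = 32), a log2 difference of 0.19 ± 0.072 (SE, limma adjusted p = 0.347) beside log2 SDs of 0.086 within heart and 0.18 within spleen. Livers 1, 2 and 3 had 15.2, 10.3 and 10.1 FPKM. ENSCAFG00000014239, rank 154, had the smallest p among members lower in heart, with 24.1, 33.4 and 39.9 FPKM in heart and 26.4, 37.6 and 51.3 FPKM in spleen (lowest, median and highest). The ranges overlapped over most of their length, and the log2 difference was -0.21 ± 0.084 (SE, limma adjusted p = 0.376) beside log2 SDs of 0.20 within heart and 0.23 within spleen. The 2 most stable members differed by 0.01 ± 0.068 and -0.06 ± 0.067 between heart and spleen (SE, limma adjusted p = 0.969 and 0.796).

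**Figure D3:**
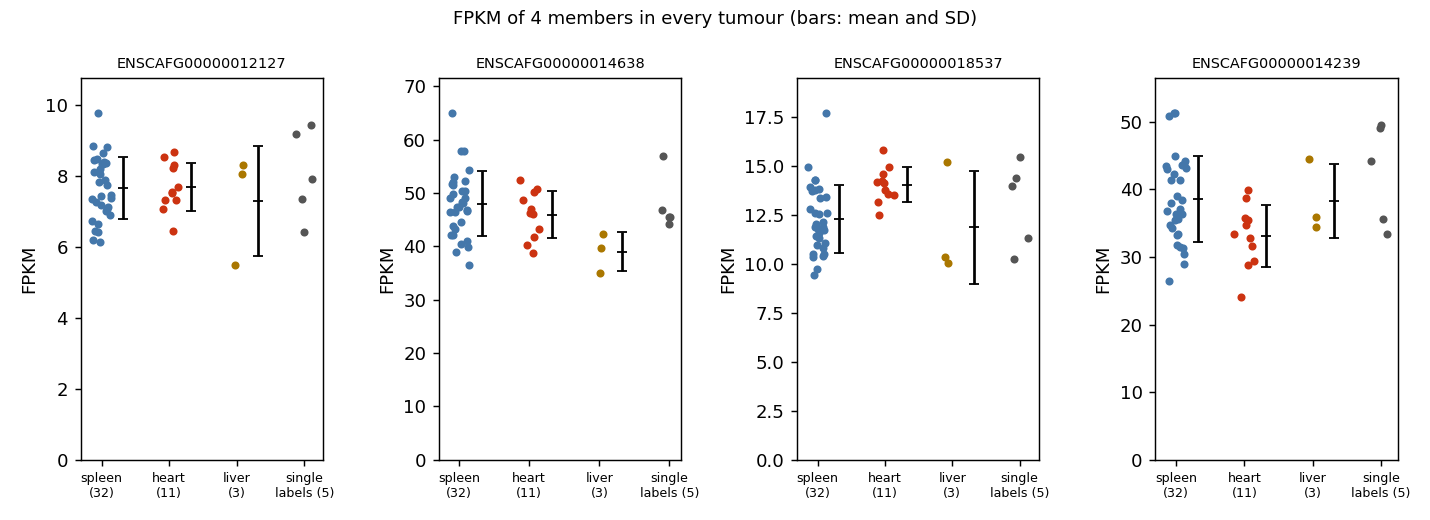
FPKM of 4 members in each tumour by tissue label (points; bars give mean and SD for spleen, heart and liver). ENSCAFG00000012127 and ENSCAFG00000014638 are the most stable members, ENSCAFG00000018537 and ENSCAFG00000014239 those with the smallest p between heart and spleen in each direction, and in all 4 the heart values overlap the spleen values.

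Liver tumours were compared in the same fit, with wider intervals because there were 3 of them. Against spleen, 0 members passed (0% of all genes did). The median difference was -0.01 on the log2 scale in members and -0.04 over all genes, and single differences ran from -0.40 to 0.32. The unadjusted p was under 0.05 for 13 members (6.5%), 2 higher and 11 lower in liver, against 6.04% of all genes, 3.66% higher and 2.37% lower. The intervals of 158 of 200 members lay within 0.5 either way, and those of the rest reached past it. Here too the limit on the total SD favours narrow intervals. The smallest p belonged to the member of rank 123, with 13.2, 11.9 and 11.1 FPKM in livers 1, 2 and 3 and 10.9 to 20.5 FPKM in spleen (log2 difference -0.37 ± 0.13, SE, limma adjusted p = 0.559). All 3 liver values lay inside the spleen range. ENSCAFG00000014638 was at 39.0 ± 3.64 FPKM in liver (SD, n = 3) and 48.0 ± 6.07 FPKM in spleen (SD, n = 32), a log2 difference of -0.29 ± 0.12 (SE, limma adjusted p = 0.71). Against heart, again 0 members passed (0% of all genes), with 12 (6.0%), 5 higher and 7 lower in liver, at an unadjusted p under 0.05, against 5.38% of all genes, 2.66% higher and 2.72% lower, and a smallest adjusted p of 0.647.

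**Figure D4:**
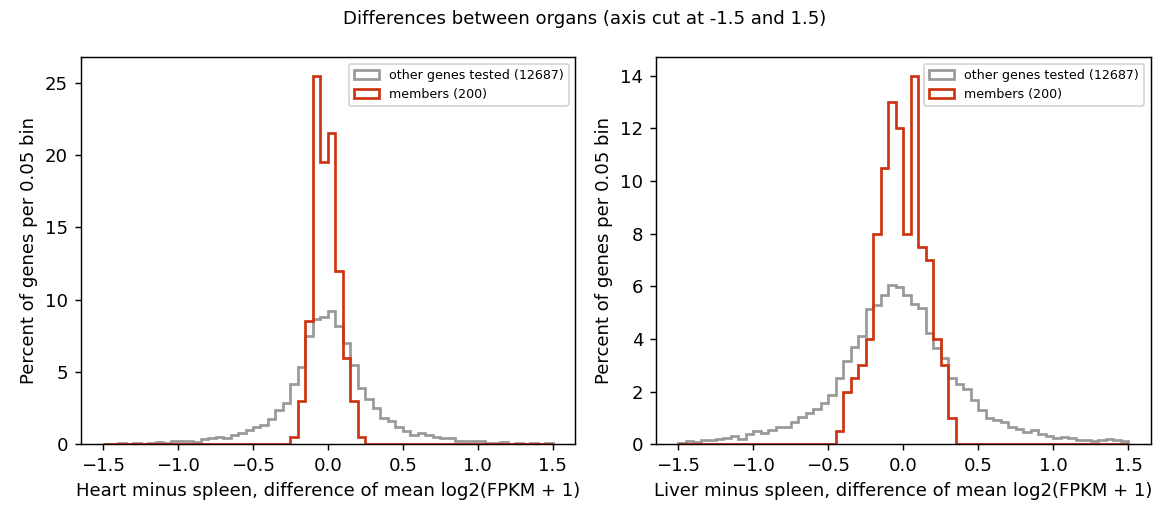
Distribution of the difference in mean log2(FPKM + 1) between heart and spleen (left) and between liver and spleen (right), as the percent of genes in bins of 0.05, for the 200 members (red) and the other genes tested (grey). Members lie between -0.21 and 0.20 for heart and between -0.40 and 0.32 for liver, while the other genes reach past both ends of the axis. The limit on the members' total SD favours small differences.

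The 5 tumours with a label of their own entered no test. For ranks 1 and 2 their levels lay within the spleen range, and for some other members they did not. ENSCAFG00000012127 stood at 7.91 FPKM in the cutaneous tumour, 9.18 in the metastatic tumor, 9.42 in the metastatic abdominal mass, 7.36 in the abdominal mass and 6.41 in the tumour of undetermined origin, all within the spleen range of 6.13 to 9.77. ENSCAFG00000014638 stood at 56.9, 44.1, 46.8, 45.4 and 45.6 FPKM in the same order, also within its spleen range of 36.5 to 65.0. ENSCAFG00000014239 was at 49.6 FPKM in the tumour of undetermined origin and 49.0 FPKM in the metastatic abdominal mass, above every heart and liver value and inside the spleen range. Examples outside their spleen ranges were rank 3 in the tumour of undetermined origin, at 30.9 FPKM (spleen 31.3 to 49.3), and rank 13 in the same tumour, at 14.8 FPKM (spleen 6.67 to 13.7). Rank 10 stood at 7.53 FPKM in the metastatic tumor (spleen 8.74 to 14.9). Rank 52 stood at 15.7 FPKM in the cutaneous tumour (spleen 18.6 to 37.0). Other members lay outside their spleen ranges as well.

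The other labels gave no called member either. Males were compared with females (24 and 22 tumours) and Golden Retrievers with other breeds (27 and 19), each with organ as a covariate, and neutered with intact dogs (28 and 18) with organ and sex as covariates. limma called 0 of 200 members in each, against 0%, 0.00776% and 0% of all genes for sex, breed and neuter status. The unadjusted p was under 0.05 in sex for 8 members (4.0%), 8 higher and 0 lower in males, against 6.68% of all genes, 2.22% higher and 4.46% lower. In breed it was for 2 members (1.0%), 1 higher and 1 lower in Golden Retrievers, against 2.34%, 1.04% higher and 1.3% lower. In neuter status it was for 3 members (1.5%), 0 higher and 3 lower in neutered dogs, against 3.38%, 1.75% higher and 1.63% lower. All 200 intervals lay within 0.5 either way in the 3 comparisons, which the limit on the members' total SD favours. The slope with age, per year and with organ as a covariate, was called for 0 members (0% of all genes), and ran from -0.05 to 0.05 on the log2 scale per year, with 11 members (5.5%), 4 rising and 7 falling, at an unadjusted p under 0.05, against 6.85% of all genes, 3.52% rising and 3.33% falling. Sample titles start with CHAD or DHSA, whose meaning the labels do not give. Between the 5 CHAD and 27 DHSA spleen tumours 0 members were called (0% of all genes), with 5 (2.5%), 3 higher and 2 lower in CHAD, at an unadjusted p under 0.05, against 4.05%, 1.54% higher and 2.51% lower.

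The sum of FPKM over all genes of a library was the one factor with called members. The slope of each gene on the log2 of that sum was fitted over the 46 tumours with organ as a covariate, where the sum ran from 424488 in spleen 3 to 1057710 in spleen 27. limma called 48 of 200 members (24%) at an adjusted p under 0.05, 22 rising and 26 falling with the sum, while 32.9% of all genes were called, a larger share than among the members. The slopes of the called members ran from -0.66 to 0.60 per doubling of the sum. The absolute slope had a median of 0.18 over the 200 members and 0.51 over all genes tested. The 4 named members were not among the 48, with adjusted p (limma) of 0.922, 0.928, 0.419 and 0.155 for ranks 1, 2, 14 and 154.

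Rank 187 had the smallest p. It had 15.3 to 24.8 FPKM, with a median of 21.4, in the 5 tumours with the lowest sums (spleens 3, 5 and 31, heart 4 and liver 3) and 10.7 to 14.1 FPKM, with a median of 12.5, in the 5 with the highest (spleens 1, 14, 17 and 27 and liver 2). These sets did not overlap, and the slope was -0.66 ± 0.12 (SE, limma adjusted p = 7.41e-05). Rank 180 rose, from 16.7 to 31.4 FPKM (median 22.04) in the 5 lowest to 28.3 to 46.1 FPKM (median 36.5) in the 5 highest, with some overlap and a slope of 0.60 ± 0.14 (SE, limma adjusted p = 0.00078). Rank 196 rose as well, from a median of 100.7 to one of 164.9 FPKM, with a slope of 0.56 ± 0.13 (SE, limma adjusted p = 0.00142). Without spleen 27, whose sum stands apart, 43 members were called, and 36 of the 48 kept their call. Without spleen 1 the count was 32, and without spleens 5, 17 and 27 it was 35. In spleen tumours alone it was 24, where 24.1% of all genes were called, and without the CHAD titles it was 27, where 24.2% were. All 48 kept their direction without spleen 27, in spleen alone, without the CHAD titles and without spleens 5, 17 and 27. What the sum itself follows was not tested.

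**Figure D5:**
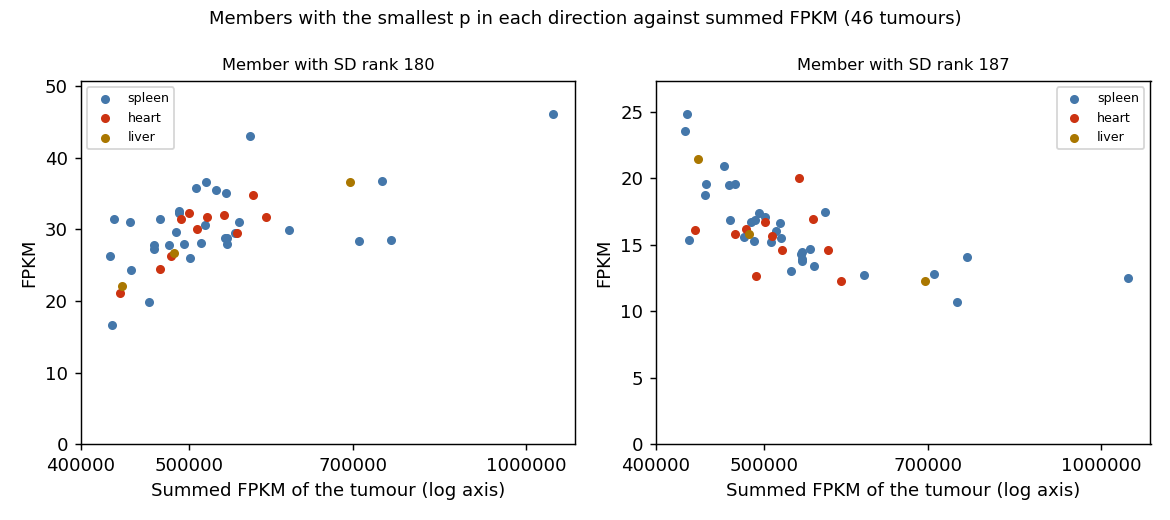
FPKM of the member with the smallest p in each direction (left, SD rank 180; right, SD rank 187) against the summed FPKM of the tumour (log axis), for 32 spleen (blue), 11 heart (red) and 3 liver tumours (brown). The left member rises and the right one falls with the sum, and points of the 3 organs are intermixed.

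Which genes were most stable depended on the scale. The deposited FPKM hold the upper quartile nearly constant between libraries, and the median level of members, 26.9 FPKM, lies close to that quartile. When each library was scaled to the same summed FPKM in place of the deposited scale, the members' median SD rose from 0.23 to 0.35 and their mean pairwise correlation from 0.024 to 0.58, since every member then shared the shift of its library. The mean log2 level of the 200 then ran from 4.83 in spleen 27 to 6.23 in the tumour of undetermined origin, with an SD of 0.27 in place of 0.038. Of the 200 genes of lowest SD on that scale, 39 were members. With median-ratio rescaling, which moved libraries by factors of 0.926 to 1.05, the median SD of members was 0.23 and 173 of 200 genes were the same, and with quantile normalization 145 were. The SD of the mean log2 level of the 200 was 0.060 with median-ratio rescaling and 0.068 with quantile normalization.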

How the data were processed

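RNA came from Qiagen columns and TruSeq kits made the libraries, per the labels' protocols. The submitters' processing notes list TopHat 1.4.1, FastQC 0.11.2, Cuffdiff and CanFam3.1. Scaling between libraries, strand use, gene annotation and Cuffdiff's version are not given in the sources used.  The authors deposited 1 table of FPKM values with 1 column per tumour, matched to samples by title. The members, lists and tests were chosen with earlier results of these data known.

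Values were analysed as log2(FPKM + 1), so differences understate the change of low genes. A gene entered limma 3.58.1 (R 4.3.3) if 3 or more of the fitted tumours had 1 FPKM (two-sided, trended empirical Bayes, Benjamini-Hochberg over all genes tested, adjusted p under 0.05), after a check on simulated data. All organ contrasts came from the same fit of 46 tumours, with no covariate. Other settings were a pseudocount of 0.1, other filters, scalings and variance models, library weights, covariates and subsets of tumours. With no symbols matched, the rule for named genes gave 4 identifiers: the 2 members of lowest SD, and the member with the smallest p between heart and spleen in each direction. Other members were singled out after their values were seen, and gene and marker lists could not be scored. Relative depth was solved from the ratios of 2448 low genes between library pairs, and 100% of pairs lay within 0.05 (log2) of the solution.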

Additional observations from a re-analysis of the deposited data

How the results depend on the processing

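Membership depended on the measure of spread and on the tumours. Of the 200 members, 93 were among the 200 genes of lowest median absolute deviation, 39 remained with each library scaled to the same summed FPKM, and, with the floor applied in those tumours only, 124 when chosen in the 32 spleen tumours and 90 in the 19 other tumours. In the other 10 settings 145 to 182 remained, and leaving out 1 tumour kept 170 (without the tumour of undetermined origin) to 198, with 153 in all 51 such lists. One of the 10, without spleens 5, 17 and 27, the metastatic tumor and the tumour of undetermined origin, was added after seeing the data. The count of members called was 0 in every setting for heart against spleen, sex, neuter status, breed, age and titles. It became 1 with array weights for any organ difference (211 of all genes were then called). In Golden Retrievers alone it became 1 for liver against spleen and 2 for liver against heart, where 1 liver tumour is left and is assumed to vary like the other groups. Leaving out 1 tumour gave 0 in each of these comparisons. For the summed FPKM the 48 members became 200 with libraries scaled to that sum, which puts the sum into every value, 31 with array weights, 27 without the CHAD titles and 24 in spleen alone, and 32 to 51 without 1 tumour; apart from the scaled libraries the cause was not tested. The heart count at an unadjusted p under 0.05, 7 members, ran from 3 to 23 over the settings, 12 with each gene's own variance. Under median-ratio rescaling, quantile normalization and covariates, and without heart 6 or heart 8, the difference of ENSCAFG00000012127, 0.01, turned to between -0.02 and 0.00; in Golden Retrievers that of ENSCAFG00000014638, -0.06, turned to 0.03. Neither was called in any setting. No paired analysis was possible because the labels pair no tumours across groups, and the numbers used here only name tumours in accession order.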

Other observations

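The floor of 5 FPKM did much of the work of the rule. Another 2703 genes had an SD at or under that of the member of rank 200 but fell below the floor in at least 1 tumour. Of these, 2682 had a mean under 1 FPKM, where log2(FPKM + 1) is close to 0 whatever the tumour, and 21 had a mean of 1 FPKM or more, up to 8.16 FPKM. With a floor of 1 FPKM in every tumour 182 of the 200 members remained, and with a floor of 10 FPKM 155 did.

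The members that followed the main axis of the tumours were few. Over 51 tumours and 13064 genes that axis, the first principal component, took 20.3% of all variance. Of the 200 members, 5 (2.5%) had an absolute correlation over 0.5 with it, against 22.1% of the other genes above the floor. The limit on the members' total SD over these tumours favours weak correlations with that axis. The members' own first principal component had an absolute correlation of 0.44 with it. This is a description over genes measured in the same libraries.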
